A study of Mus musculus with 4 samples.

Results

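The genes described here are 8 genes of immunoglobulin Fc recognition in mouse tumor associated macrophages (TAMs): the Fc gamma receptor genes Fcgr1, Fcgr2b, Fcgr3 and Fcgr4, the neonatal Fc receptor gene Fcgrt, the signaling chains Fcer1g and Tyrobp, and the kinase gene Syk. They were chosen by symbol as a list of named genes, with no threshold on a measured value, and their identifiers picked out 8 of the 54146 genes in the count table. RNA sequencing had been performed on TAMs from MCA205 tumors, a transplanted mouse fibrosarcoma grown under the skin of female mice aged 8 to 16 weeks. The control group comprised 2 libraries, labelled vehicle, and the propranolol group (PRO) comprised 2 libraries from mice given propranolol hydrochloride, a non-selective beta blocker, at 0.5 g/L in the drinking water from the day of tumor cell injection. Both groups carried the same tumor, and the strain of the mice used for sorting is not given in the sources used here. Cells positive for CD45 were enriched with magnetic beads, and live cells positive for CD11b and F4/80 were then sorted. The sources used here do not say whether a library came from 1 mouse or from pooled mice. The libraries are described as biological replicates, and p-values rest on the spread between these libraries only. In the edgeR test the variance of a gene also borrows from all tested genes.

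Libraries held 13798249 and 23018142 counts in the control group and 39818103 and 16424081 in the PRO group. The 8 genes together took 0.391% and 0.392% of all counts in control libraries and 0.444% and 0.402% in PRO libraries. Individual counts ranged from 2839 (Fcgr4, PRO replicate 2) to 40796 (Fcgr2b, PRO replicate 1), so that counting error alone was at most 1.88% of any value. Over all genes, the spread between replicates was larger than counting error. A chi-square per degree of freedom over genes was 10.6 between the control libraries and 13.7 between the PRO libraries. For Fcgr1 and Tyrobp, however, the control libraries differed by less than counting error. The genes of the sorting gate were measured in every library. Adgre1, which encodes F4/80, had 975 and 1008 counts-per-million (CPM, scaled with TMM factors) in control libraries and 1151 and 1100 in PRO libraries. Itgam, which encodes CD11b, had 359 and 352 CPM against 369 and 313 CPM.

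Fc receptors bind the constant part of antibodies and let macrophages take up or kill antibody-coated targets. The activating Fc gamma receptors pass their signal through the FcR gamma chain, encoded by Fcer1g, whose immunoreceptor tyrosine-based activation motif recruits the kinase Syk. DAP12, encoded by Tyrobp, is a related chain that serves other myeloid receptors. The inhibitory receptor encoded by Fcgr2b carries an inhibitory motif in its own tail and recruits phosphatases. The neonatal Fc receptor works inside the cell, where it returns IgG and albumin from endosomes to the surface.

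Coordinates are on GRCm38 (mm10) with the GENCODE M21 annotation. The receptor genes Fcgr2b (1:170958617-170976547, minus strand), Fcgr4 (1:171018920-171029761, plus strand) and Fcgr3 (1:171051174-171064935, minus strand) lie in this order on chromosome 1, and Fcer1g (1:171229572-171234365, minus strand) lies further along it. Fcgr1 lies at 3:96282909-96293969 on the minus strand, Tyrobp at 7:30413760-30417585 on the plus strand, Fcgrt at 7:45092990-45103851 on the minus strand and Syk at 13:52583173-52648792 on the plus strand. Counting was over exons. Transcripts of Fcgr2b and Fcgr3 share 166 stretches of 50 bases, which are 2.92% of the stretches of Fcgr2b and 9.58% of those of Fcgr3, so that a small part of their reads could not be assigned with certainty. No other pair among the 8 genes shared such a stretch. The antisense gene Gm38204 shares 155 exonic bases with Fcgr2b, and it had 7 and 26 counts in control libraries and 18 and 20 counts in PRO libraries.

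Bases upstream of the transcription start were compared, since the Fc gamma receptor genes did not all have differences of the same direction. RefSeq promoter windows (GRCm38.p6) were found for 7 of the 8 genes, and the 150 bases before the RefSeq start were searched on both strands for GAGGAA, the core letters bound by the myeloid factor PU.1, and for TTCNNNGAA, the letters of the interferon-responsive GAS element. Among 32851 such windows, 14.5% held the PU.1 core and 4.09% held the GAS letters. The PU.1 core was found in the windows of the 3 activating receptor genes, read on the other strand as TTCCTC each time, at 55 to 50 bases before the start in Fcgr1, at 6 to 1 bases in the first of 2 windows of Fcgr3 and at 22 to 17 bases in Fcgr4. The windows of these 3 genes are shown for that reason, 5′ to 3′ along the gene, with motif letters in capitals. They lie at chr3:96293970-96294119 (minus strand), chr1:171059404-171059553 (minus strand) and chr1:171018776-171018925 (plus strand).
Fcgr1: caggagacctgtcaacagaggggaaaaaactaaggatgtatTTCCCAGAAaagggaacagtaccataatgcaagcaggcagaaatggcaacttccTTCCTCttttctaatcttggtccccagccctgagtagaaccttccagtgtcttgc
Fcgr3: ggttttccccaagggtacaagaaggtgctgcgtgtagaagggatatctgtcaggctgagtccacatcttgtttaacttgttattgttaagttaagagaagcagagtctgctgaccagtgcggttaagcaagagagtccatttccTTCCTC
Fcgr4: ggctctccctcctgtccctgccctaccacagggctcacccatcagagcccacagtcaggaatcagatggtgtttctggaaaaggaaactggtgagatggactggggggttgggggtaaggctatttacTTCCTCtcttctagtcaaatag
The GAS letters occurred in Fcgr1, as TTCCCAGAA at 109 to 101 bases before the start. Neither motif occurred in the windows of Fcgr2b, Fcer1g and Fcgrt, and of the 2 windows of Syk the PU.1 core occurred in the second. The windows are not all outside the genes as GENCODE annotates them: 103 of the 150 bases of the Fcgr2b window and all 150 of the first Syk window lie in annotated exons, and the Fcgr3 window lies inside the outer bounds of the gene, so absence in Fcgr2b was not compared with presence in the activating genes. A match of letters describes the sequence and does not show binding.

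Propranolol treatment was compared with control to ask whether the Fc receptor system of TAMs differed. Fcgrt was the gene of the 8 that changed, with a rise of 1.71-fold, and no gene fell. Its call did not hold once the trend on GC content was removed (1 gene called, Fcgr2b), as described further on. A gene was called changed when the edgeR quasi-likelihood test gave an adjusted p (Benjamini-Hochberg over 14688 tested genes) under 0.05 and the difference exceeded 1.5-fold. By that rule 1 of the 8 genes was called, all 8 having passed the filter on low counts, against 27.8% of all tested genes (12.2% higher and 15.6% lower). Without the fold criterion, 6 of the 8 genes had an adjusted p under 0.05, all in the direction of higher levels in PRO TAMs, against 42.2% of all tested genes (21.8% higher). After GC removal 4 of the 8 did, against 24.6%. The PRO libraries did not overlap the control libraries for 7 of the 8 genes, the exception being Fcer1g. They were above the controls for 6 genes and below them for 1 (Fcgr4). The groups did not overlap for 72.6% of all tested genes (35.8% higher and 36.9% lower), so the lack of overlap by itself did not set these genes apart. The median log2 difference of the 8 genes was 0.39, and that of all tested genes was -0.02. With that trend removed these medians were 0.29 and 0.11. These are bulk measurements, in which fewer cells of a type and less RNA per cell cannot be told apart.

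**Figure D1:**
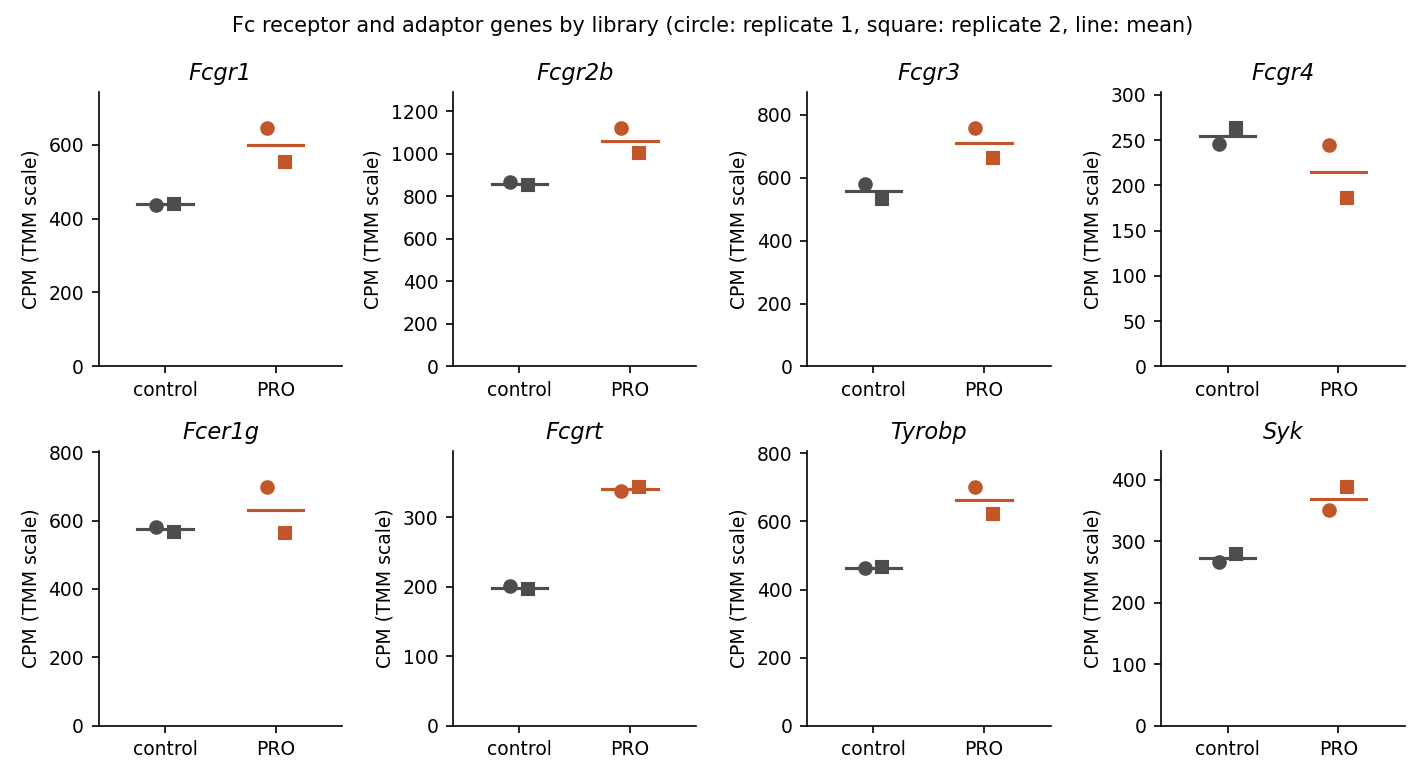
CPM with TMM scaling (vertical axes, each from 0) of the 8 genes in each library, with circles for replicate 1, squares for replicate 2 and lines for group means. PRO libraries lie above both control libraries for Fcgr1, Fcgr2b, Fcgr3, Fcgrt, Tyrobp and Syk, below them for Fcgr4, and on both sides of them for Fcer1g.

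Fcgr1 encodes CD64, the high-affinity IgG receptor. It had 438 and 441 CPM in control libraries and 646 and 553 CPM in PRO libraries. Both PRO libraries were above both control libraries, with a log2 difference of 0.45 ± 0.10 (SE, 2 libraries per group, adjusted p = 0.0058), which is under 1.5-fold. Leaving out a PRO library moved it: without PRO replicate 2 the difference was 0.59 (adjusted p = 0.00014) and past 1.5-fold, while without PRO replicate 1 it was 0.34.

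Fcgr3 encodes an activating receptor of low affinity (CD16). Control libraries had 579 and 533 CPM and PRO libraries 759 and 662 CPM. The groups did not overlap, and the log2 difference was 0.35 ± 0.10 (SE, n = 2 per group, edgeR adjusted p = 0.018), under 1.5-fold. Its adjusted p was 0.074 without control replicate 2 and 0.084 without PRO replicate 1.

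Fcgr4, an activating receptor with a preference for mouse IgG2a and IgG2b, had 246 and 264 CPM in control libraries and 244 and 186 CPM in PRO libraries. PRO replicate 1 lay within 2 CPM of the lower control library, and PRO replicate 2 was the lowest of all. The log2 difference of -0.24 ± 0.13 (SE, n = 2 per group) did not pass the test (edgeR adjusted p = 0.16, 95% interval -0.53 to 0.04). PRO replicate 2 decided this value: without it the difference was -0.03 (adjusted p = 0.88), and without PRO replicate 1 it was -0.45 (adjusted p = 0.0052, under 1.5-fold).

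Fcgr2b, the inhibitory receptor gene, had the highest CPM of the 8 genes. It had 865 and 852 CPM in control libraries and 1122 and 1002 CPM in PRO libraries. Both PRO libraries were higher, and the log2 difference was 0.31 ± 0.09 (SE, n = 2 per group, edgeR adjusted p = 0.023), under 1.5-fold. The adjusted p was 0.058 without control replicate 2 and 0.11 without PRO replicate 1.

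Receptor genes were compared with each other per exon length, as transcripts-per-million (TPM, over all exons of a gene), within each library. TPM carry no TMM factor, and these factors were 1.08 and 1.09 in control libraries and 0.914 and 0.931 in PRO libraries. Differences between the groups stood lower in TPM than in CPM. Mean TPM was 492 in the control and 516 in the PRO group for Fcgr2b, and 674 and 481 for Fcgr4. For Fcer1g it was 2183 and 2027, the reverse of its direction in CPM. Fcgr3 was the most abundant receptor gene, with 1092 and 1035 TPM in control libraries and 1206 and 1096 TPM in PRO libraries. The order after it differed between the groups. In control libraries Fcgr4 came next at 641 and 707 TPM, followed by Fcgr1 at 553 and 573 TPM and Fcgr2b at 489 and 496 TPM. In PRO libraries Fcgr4 came last of the 4 genes in PRO replicate 2 at 425 TPM, and it had 537 TPM in PRO replicate 1, which was as much as Fcgr2b there (535 TPM). Fcgr1 had 688 and 613 TPM in PRO libraries and stood second. The summed TPM of the 4 receptor genes was 2775 and 2811 in control libraries and 2966 and 2631 in PRO libraries, and the groups overlapped. The order between genes depends on the length used: over the longest transcript Fcgr2b had 621 and 629 TPM in control libraries, above Fcgr4 at 498 and 549 TPM, and 672 and 626 TPM in PRO libraries, above Fcgr1 at 529 and 473 TPM.

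In the make-up of the Fc gamma receptor transcripts Fcgr4 had the largest difference. Its share of the summed TPM was 23.1% and 25.1% in control libraries and 18.1% and 16.2% in PRO libraries, a mean difference of -6.99 percentage points. Fcgr1 made up 19.9% and 20.4% in control libraries and 23.2% and 23.3% in PRO libraries, and Fcgr3 39.4% and 36.8% against 40.7% and 41.6%. The share of the inhibitory Fcgr2b was 17.6% in both control libraries and 18.0% and 18.9% in PRO libraries. With the GC trend removed the share differences were -6.19 percentage points for Fcgr4 and 2.26 for Fcgr3, in place of 3.07, while that of Fcgr1 went from 3.09 to -0.19 and that of Fcgr2b from 0.83 to 4.12. With a library left out the difference ranged from 0.40 (without PRO replicate 2) to 1.25 (without PRO replicate 1) for Fcgr2b, and from 1.80 (without control replicate 2) to 4.34 (without control replicate 1) for Fcgr3.

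**Figure D2:**
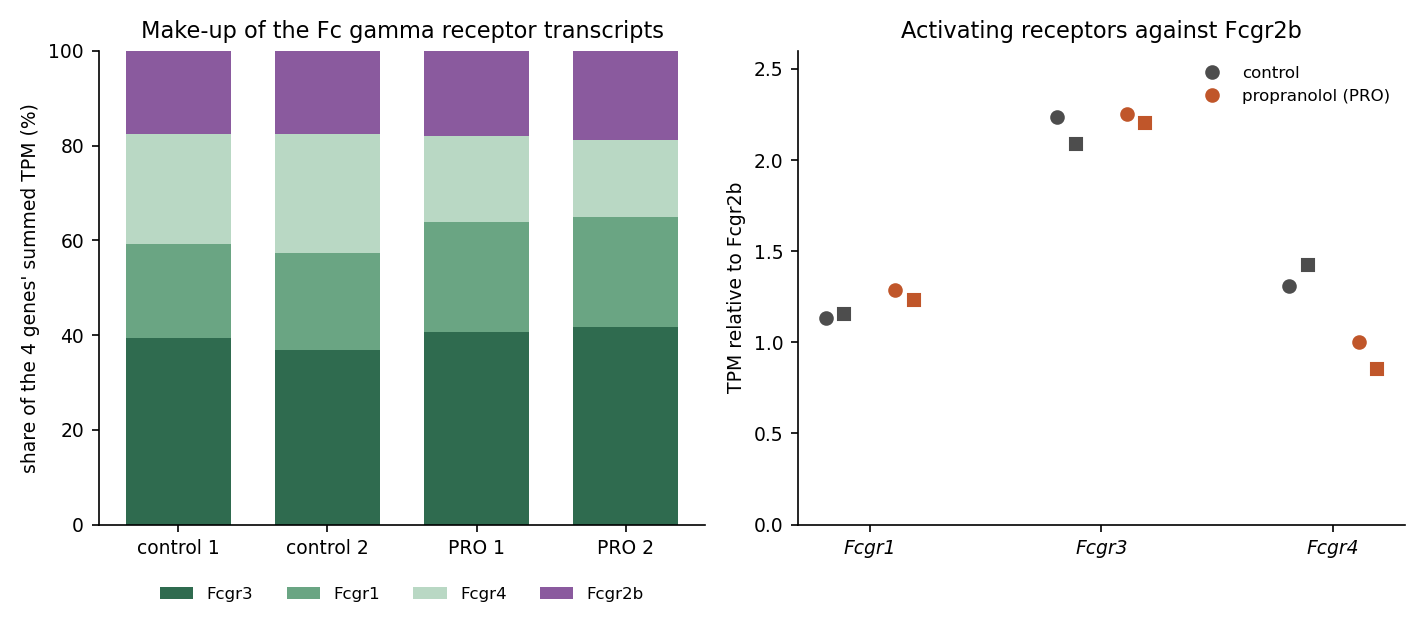
Left, shares of Fcgr3, Fcgr1, Fcgr4 and Fcgr2b in their summed TPM (vertical axis in percent) in each library; right, TPM of the 3 activating receptor genes relative to Fcgr2b (vertical axis, ratio from 0), with circles for replicate 1 and squares for replicate 2. The Fcgr4 segment takes 23.1% and 25.1% in control libraries and 18.1% and 16.2% in PRO libraries, and the Fcgr4 to Fcgr2b ratio of both PRO libraries lies below both control libraries.

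Activating receptors were also set against the inhibitory receptor. The TPM ratio of Fcgr4 to Fcgr2b was 1.31 and 1.43 in control libraries and 1.0 and 0.856 in PRO libraries, a log2 difference of -0.56. Fcgr1 to Fcgr2b went the other way, with ratios of 1.13 and 1.16 against 1.29 and 1.23 and a log2 difference of 0.14. For both ratios the groups did not overlap, and the exact permutation test gave p = 0.33 (two-sided), the smallest p that 2 against 2 libraries allow. The direction of the Fcgr1 ratio turned when the trend with GC content was removed, to -0.34, while that of Fcgr4 was then -0.77. Fcgr3 to Fcgr2b was 2.23 and 2.09 in control libraries and 2.26 and 2.21 in PRO libraries, and the groups overlapped (log2 difference 0.05, exact permutation p = 0.67, and -0.24 with the GC trend removed). The sum of the 3 activating genes was 4.68 and 4.67 times Fcgr2b in control libraries and 4.55 and 4.30 times in PRO libraries, a log2 difference of -0.08 (exact permutation p = 0.33), which became -0.40 with the GC trend removed. It was -0.04 without PRO replicate 2 and -0.12 without PRO replicate 1.

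Fcer1g encodes the FcR gamma chain, which the activating receptors need for surface expression and signaling. It had 581 and 568 CPM in control libraries and 698 and 563 CPM in PRO libraries. The PRO libraries lay on both sides of the controls, and the log2 difference of 0.13 ± 0.11 (SE, n = 2 per group) did not pass the test (edgeR adjusted p = 0.36, 95% interval -0.11 to 0.38). Its sign rested on PRO replicate 1, without which the difference was -0.03. Without PRO replicate 2 it was 0.31 (adjusted p = 0.031, under 1.5-fold). The chain was abundant next to its receptors, at 1.99 and 2.12 times the TPM of Fcgr3 in control libraries and 1.83 and 1.69 times in PRO libraries.

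Tyrobp had 462 and 465 CPM in control libraries and 701 and 622 CPM in PRO libraries. Both PRO libraries were higher, with a log2 difference of 0.51 ± 0.10 (SE, n = 2 per group, edgeR adjusted p = 0.0022), which is 1.43-fold and under the criterion. Without PRO replicate 2 the difference was 0.63 and the gene was called. Per length over all exons Tyrobp had the highest level of the 8 genes, with 2266 and 2349 TPM in control libraries and 2900 and 2678 TPM in PRO libraries. It ranked 33rd of all genes by mean TPM in the control group and 38th in the PRO group. Relative to Fcer1g, the TPM of Tyrobp was 1.04 and 1.07 in control libraries and 1.32 and 1.45 in PRO libraries, without overlap between the groups. Over the longest transcript Tyrobp was below Fcer1g in control libraries (1968 and 2038 against 2164 and 2176 TPM) and above it in PRO libraries (2492 and 2309 against 2170 and 1826 TPM).

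Syk, the kinase downstream of both chains, had 266 and 280 CPM in control libraries and 350 and 388 CPM in PRO libraries. The groups did not overlap, and the log2 difference was 0.44 ± 0.10 (SE, n = 2 per group, edgeR adjusted p = 0.0056), under 1.5-fold. Per length it had the lowest level of the 8 genes, between 93.1 TPM (control replicate 1) and 119 TPM (PRO replicate 2). The TPM of Fcer1g was 23.4 and 21.8 times that of Syk in control libraries and 21.3 and 15.5 times in PRO libraries.

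Fcgrt had 201 and 196 CPM in control libraries and 337 and 343 CPM in PRO libraries. The replicates were close to each other in both groups (199 ± 3.21 CPM against 340 ± 4.52 CPM, SD, n = 2), and the rise was larger than this spread. The log2 difference was 0.78 ± 0.09 (SE, edgeR adjusted p = 0.00024, 95% interval 0.57 to 0.98). It was called with each library left out in turn, at 0.78 to 0.85. The lower end of its interval is below the log2 value of 1.5-fold, and a glmTreat test against 1.5-fold gave an adjusted p of 0.081. In TPM Fcgrt had 313 and 315 in control libraries and 443 and 469 in PRO libraries, which placed it below all 4 Fc gamma receptor genes in control libraries and above Fcgr4 in PRO replicate 2.

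Differences between the groups moved with the GC content of transcripts across all genes. Tested genes within 1 percentage point of the GC content of Fcgrt (55.9%) had a median log2 difference of 0.44. Their middle 50% ran from 0.10 to 0.69, below the 0.78 of Fcgrt. Genes around Tyrobp (54.8%) and Syk (54.3%) had medians of 0.40 and 0.37. Genes around Fcgr2b (45.4%) had a median of -0.26, with a middle 50% from -0.59 to 0.01, below the 0.31 of Fcgr2b. Once a fitted spline on GC content had been taken out of every library, the median of all tested genes moved from -0.02 to 0.11. Fcgr2b was then called, at a log2 difference of 0.68 (adjusted p = 0.0013), and Fcgrt was no longer called, at 0.46 (adjusted p = 0.0067), under 1.5-fold. Fcgr1 stood at 0.34 (adjusted p = 0.044) and Fcgr3 at 0.43 (adjusted p = 0.016). Tyrobp stood at 0.23 (adjusted p = 0.14), Syk at 0.17 (adjusted p = 0.21), Fcer1g at 0.01 and Fcgr4 at -0.08. The number of called genes among the 8 was 1 with and without the removal, but the gene was a different one. The origin of the GC trend was not tested.

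**Figure D3:**
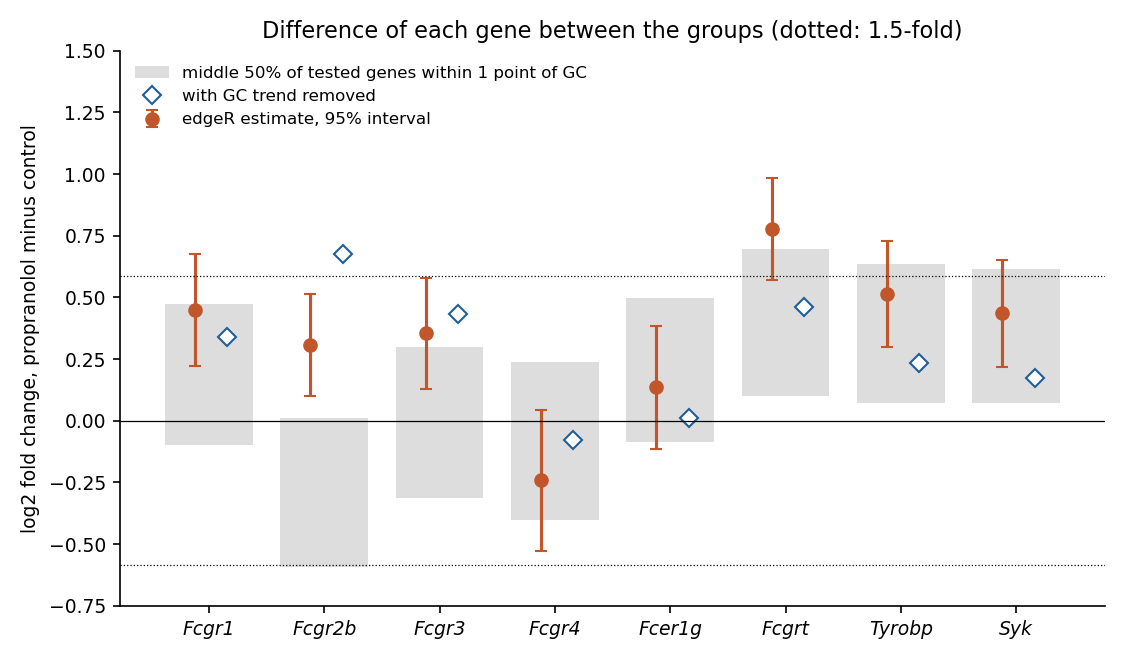
Log2 difference between PRO and control (vertical axis) for the 8 genes, with filled circles and 95% intervals from edgeR, open diamonds for the value with the GC trend removed, and grey boxes for the middle 50% of tested genes within 1 percentage point of GC content. The circles of Fcgr2b, Fcgr3 and Fcgrt lie above their boxes, and those of Tyrobp and Syk lie inside theirs. Fcgrt lies above the dotted 1.5-fold line as a circle and below it as a diamond.

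Other Fc receptors and Fc receptor-like genes were looked at as a list of 15 genes. Fcer1a and Ms4a2, chains of the high-affinity IgE receptor, and Pigr, the receptor that carries IgA across epithelia, had 0 counts in all 4 libraries. Of 8 genes that passed the filter on low counts, 2 rose and 1 fell, beside 12.2% higher and 15.6% lower among all tested genes, and the groups did not overlap for 6 of them, beside 72.6% of all tested genes. Fcrls, a scavenger receptor-like member of the family, was the most abundant, with 886 and 704 CPM in control libraries and 1288 and 1463 CPM in PRO libraries. It rose by a log2 difference of 0.79 ± 0.12 (SE, edgeR adjusted p = 0.000755). Fcrlb, an intracellular Fc receptor-like gene, had 33.7 and 39.9 CPM against 69.1 and 68.3 CPM, a log2 difference of 0.90 (adjusted p = 0.00043). Cd247, the zeta chain of the T cell receptor complex, had 7.48 and 10.1 CPM against 5.36 and 2.62 CPM and fell by 1.10 on the log2 scale (adjusted p = 0.023). It stood at -0.69 without PRO replicate 2 (adjusted p = 0.084) and at -0.66 with the GC trend removed (adjusted p = 0.17), and was not called in either case. The median log2 difference of these 8 genes was -0.47, beside -0.02 for all tested genes, with 4 genes above and 4 below 0. With the GC trend removed it was -0.12, beside 0.11.

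Downstream of the receptors, all 49 listed genes of the phagocytic signaling cascade were tested, of which 10 rose and 6 fell, beside 12.2% higher and 15.6% lower among all tested genes. With upper-quartile scaling the split was 5 higher and 7 lower, beside 9.65% and 17.2% of all tested genes. GC removal gave 4 and 4, beside 8.19% and 4.75%, so no direction of the list as a whole is given. The median log2 difference was 0.11 (0.24 with the GC trend removed), and the groups did not overlap for 43 of the 49 genes, beside 72.6% of all tested genes. Card9, an adaptor downstream of Syk, had 65.5 and 81.3 CPM in control libraries and 157 and 192 CPM in PRO libraries, with a log2 difference of 1.24 ± 0.14 (SE, edgeR adjusted p = 0.00018). Arpc1b, a subunit of the actin-nucleating Arp complex and the gene of the list with the highest mean TPM, had 1240 and 1186 CPM against 2333 and 2257 CPM, a log2 difference of 0.92 (adjusted p = 0.00010). Akt1, a survival kinase fed by phosphoinositide signaling, differed by 0.76 on the log2 scale, with 269 and 266 CPM against 437 and 468 CPM. All 3 of these genes rose, and with the GC trend removed Akt1 stood at 0.44 (adjusted p = 0.0079), under 1.5-fold. Among genes that fell, Lat and Zap70 are the adaptor and the kinase of the T cell receptor pathway. Lat had 16.0 and 19.6 CPM in control libraries and 10.6 and 7.27 CPM in PRO libraries, and Zap70 had 24.8 and 29.4 CPM against 17.2 and 11.9 CPM. Cdc42, a small GTPase that organizes actin at the phagocytic cup, had 919 and 790 CPM against 551 and 413 CPM and fell by 0.83 on the log2 scale (adjusted p = 0.0011). Its log2 difference was -0.21 (adjusted p = 0.26) with the GC trend removed.

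A list of inhibitory receptors and phosphatases also held other genes, such as the adaptor genes Dok2 and Sla2. Of its 33 genes, 4 rose and 5 fell, beside 12.2% higher and 15.6% lower among all tested genes. With the GC trend removed the split was 4 higher and 2 lower, beside 8.19% and 4.75% of all tested genes. The groups did not overlap for 24 of the 33, which is near the 72.6% of all tested genes, and the median log2 difference was 0.02 (0.21 with the GC trend removed, beside 0.11 for all tested genes). The genes with the largest rises were the adaptors Dok2 (108 and 113 CPM against 232 and 191 CPM, log2 difference 0.94, adjusted p = 0.00028) and Dok3 (125 and 141 CPM against 218 and 265 CPM, 0.85, adjusted p = 0.00051), which dampen tyrosine kinase signaling. Dok3 stood at 0.52 (adjusted p = 0.0075), under 1.5-fold, with the GC trend removed. The inhibitory receptor Cd300lf followed at 0.73, with 118 and 148 CPM against 211 and 231 CPM. Sla2, an adaptor of lymphocytes, had 5.46 and 6.62 CPM in control libraries and 2.97 and 1.24 CPM in PRO libraries and fell by 1.45 on the log2 scale (adjusted p = 0.014). The phosphatase gene Ptpn22 fell by 1.10 and the inhibitory lectin gene Clec12a by 0.96, the latter with 158 and 176 CPM against 102 and 69.4 CPM. Clec12a stood at -0.18 (adjusted p = 0.41) with the GC trend removed. Sirpa, the receptor for the CD47 signal and the gene of the list with the highest mean TPM, had 1281 and 1282 CPM against 1511 and 1464 CPM and did not pass the test (log2 difference 0.22, adjusted p = 0.063).

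A further list held receptors coupled to the FcR gamma chain or DAP12, or signaling through Syk, and also the adaptor gene Hcst. It had the highest share of calls among the lists of the pathway. Of 34 listed genes 28 were tested, of which 11 rose and 6 fell, beside 12.2% and 15.6% of all tested genes. Upper-quartile scaling gave 7 higher and 7 lower, beside 9.65% and 17.2%. GC removal gave 13 higher and 0 lower, beside 8.19% and 4.75%. Fewer of these receptors were called higher without PRO replicate 1 than with all libraries, and fewer were called lower without PRO replicate 2. The groups did not overlap for 23 of the 28 genes, beside 72.6% of all tested genes, and the median log2 difference was 0.36 (0.56 with the GC trend removed). Trem3, a DAP12 partner, had 6.27 and 5.86 CPM in control libraries and 15.3 and 12.9 CPM in PRO libraries (log2 difference 1.22, adjusted p = 0.0011). Trem1, an amplifier of inflammatory signaling, had 31.1 and 30.3 CPM against 71.9 and 62.8 CPM (1.14, adjusted p = 0.00015). Clec4d, a lectin receptor that uses the FcR gamma chain, had 31.8 and 27.1 CPM against 64.5 and 53.0 CPM (1.01, adjusted p = 0.00050). Clec4d stood at 1.88, Trem3 at 1.30 and Trem1 at 1.24 with the GC trend removed. The genes with the largest falls encode receptors of natural killer cells. Klrk1 (NKG2D) had 37.7 and 37.3 CPM in control libraries and 12.05 and 7.86 CPM in PRO libraries, and fell by 1.88 on the log2 scale (adjusted p = 0.00013). Ncr1 had 6.20 and 6.42 CPM against 2.75 and 0.786 CPM (-1.73, adjusted p = 0.012). Klra8 had 0.742 and 1.43 CPM against 0.193 and 0.196 CPM (-2.49, adjusted p = 0.017). With the GC trend removed none of these 3 was called: Klrk1 stood at 0.19 (adjusted p = 0.48), Ncr1 at -1.28 (adjusted p = 0.061) and Klra8 at -1.62 (adjusted p = 0.12). Klra8 was called with control replicate 1 left out, but not with any other library left out (-1.89 to -2.47). Itgb2, the shared beta chain of leukocyte integrins and the gene with the highest mean TPM, had 610 and 695 CPM against 998 and 953 CPM. Its log2 difference of 0.58 (adjusted p = 0.0012) was just under 1.5-fold, and it was past it without control replicate 2 (0.69) or PRO replicate 2 (0.64).

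**Figure D4:**
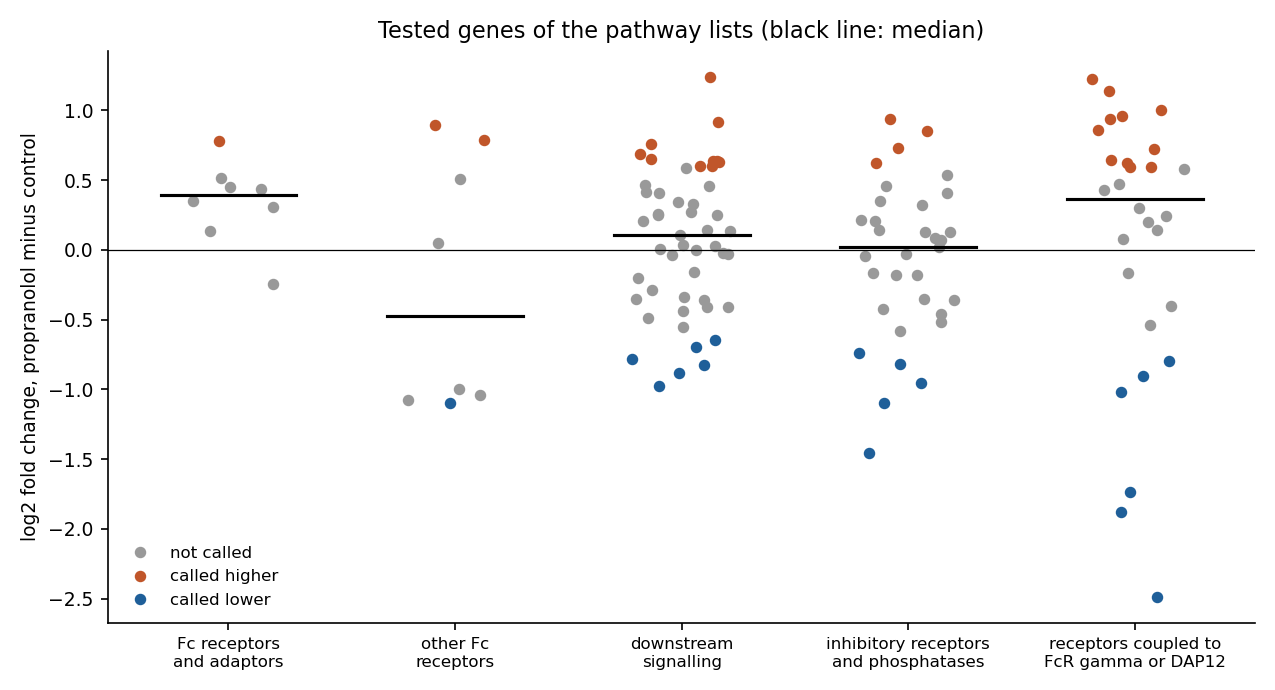
Log2 difference between PRO and control (vertical axis) for each tested gene of the 5 lists, colored by call, with black lines for list medians. The 8 Fc receptor and adaptor genes have a median of 0.39 and 1 call. The list of receptors coupled to the FcR gamma chain or DAP12, or signaling through Syk, spreads widest, with 11 called higher and 6 called lower.

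Markers of other leukocytes, which the CD11b and F4/80 gate selects against, were measured beside the 8 genes. The summed CPM of 7 natural killer cell markers was 114 and 119 in control libraries and 46.6 and 23.0 in PRO libraries, and all 7 fell (6 with the GC trend removed). The most abundant was Prf1, and the defining marker Ncr1 was above 0 in each library. The median log2 difference of the 7 was -1.83, and -1.44 with the GC trend removed. The summed CPM of 7 T cell markers was 239 and 280 in control libraries and 117 and 55.9 in PRO libraries, all 7 fell, and Cd8a was the most abundant. Natural killer cells express Fcgr3, Fcer1g, Tyrobp and Syk as well. In the neutrophil list 4 of 5 tested genes rose, with summed CPM of 51.1 and 51.3 in control libraries and 155 and 146 in PRO libraries. S100a9 was the most abundant, and the defining marker Ly6g had 0.00 and 0.080 CPM against 0.47 and 0.52 CPM. Neutrophils also express Fcgr4, Fcer1g and Trem1. Of 10 macrophage markers, 2 rose (Csf1r and Cd14) and none fell, beside 12.2% and 15.6% of all tested genes, with summed CPM of 19549 and 18628 in control libraries and 24497 and 22375 in PRO libraries and Lyz2 as the most abundant. Csf1r stood at 0.32 and Cd14 at 0.51 with the GC trend removed, both under 1.5-fold, and Csf1r was also under it without PRO replicate 2 (0.55). With that trend removed Mrc1 was the 1 macrophage marker called, at 0.87 (edgeR adjusted p = 0.00060) in place of 0.33. The part of these other cells in the values of the 8 genes was not tested.

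Counts of markers of further cell types stand beside 12.2% higher and 15.6% lower among all tested genes. In the B cell list, of 3 tested genes 1 rose and 1 fell, summed CPM was 159 and 183 against 184 and 196, and most of it was Ighm. Mast cell and basophil markers summed to 11.3 and 10.6 CPM against 4.57 and 6.02 CPM. Of these, Kit was the most abundant, both tested genes fell, Cpa3 was at 0 in both control libraries and Mcpt8 was at 0 in all 4 libraries. Dendritic cell markers summed to 26.6 and 27.5 CPM against 17.2 and 16.4 CPM, with 2 of 5 tested genes lower and Ccr7 the most abundant. In the platelet and megakaryocyte list, Gp1bb was at 0 in all 4 libraries and Pf4 was the most abundant, with sums of 158 and 143 against 285 and 253 CPM and 1 of 2 tested genes higher. Fibroblast or sarcoma cell markers summed to 2709 and 1013 CPM in control libraries, 609 and 664 CPM in PRO libraries, with 4 of 6 called lower and Col3a1 the most abundant. All 6 were below 0 without overlap between the groups, and their median log2 difference was -1.63 (-1.41 with the GC trend removed). Endothelial markers summed to 42.6 and 41.0 against 56.3 and 49.1 CPM, with 1 of 3 tested genes higher and Pecam1 the most abundant. With the GC trend removed no call was left in the B cell, dendritic and endothelial lists, and those of the mast cell (2 lower), platelet (1 higher) and fibroblast lists (4 lower) kept their number.

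**Figure D5:**
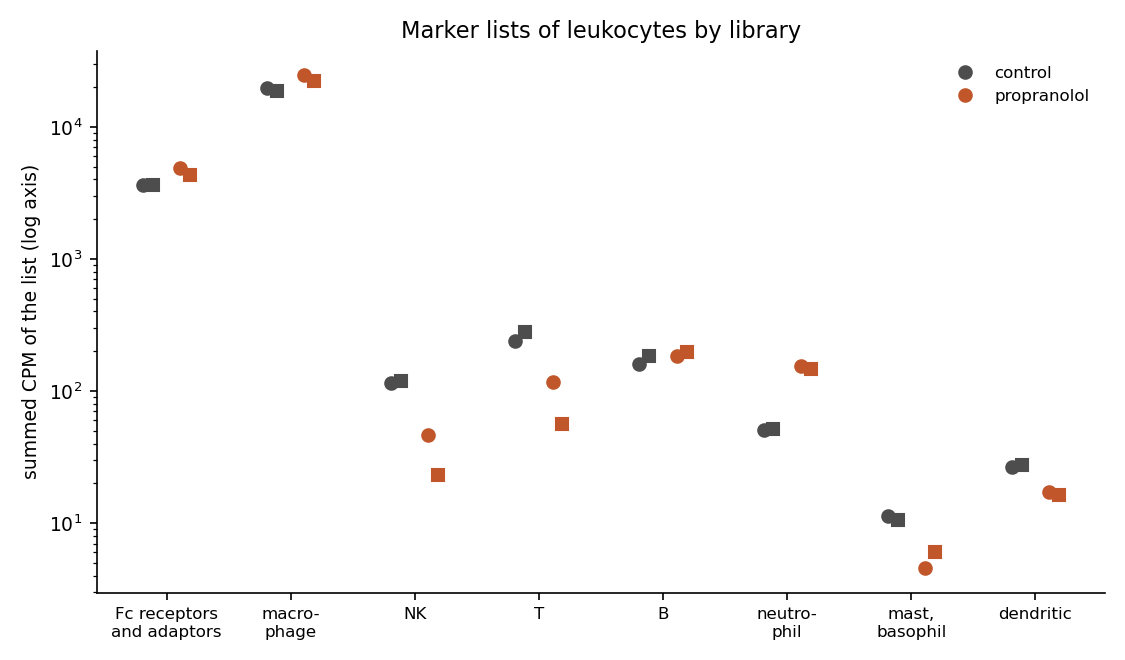
Summed CPM (vertical axis, log scale) of the 8 Fc receptor and adaptor genes and of 7 marker lists of leukocytes in each library, with circles for replicate 1 and squares for replicate 2. The natural killer cell and T cell sums lie lower in both PRO libraries, the neutrophil sum lies higher, and the macrophage sum exceeds every other list in each library.

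For Fcgr2b, Fcgr4 and Fcer1g, the genes of most similar pattern were sought among 5597 abundant tested genes, by the distance of centered log2 CPM over the 4 libraries. Nearest to Fcgr2b were Ppp1r18, Ganab and Bak1 at distances of 0.02, 0.02 and 0.03, and 179 genes lay within 0.1. Nearest to Fcer1g were Srp14, Exosc8 and Mtch2 at 0.02, 0.03 and 0.03, with 65 genes within 0.1. The pattern of Fcgr4, which was lowest in PRO replicate 2, was shared by fewer genes. Its nearest were Ly9, Idh3a and Mat2a at 0.03, 0.07 and 0.07, and 7 genes lay within 0.1.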

How the data were processed

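RNA of sorted TAMs was sequenced in 2 control and 2 PRO libraries, prepared from 400 ng RNA of integrity above 7.5. The authors aligned reads to mm10 with STAR 2.7.1a, filtered alignments on mapping quality (SAMtools 1.9) and deposited raw counts of paired reads over exons, made with featureCounts 1.6.4. The submitters' processing notes also name DESeq2 1.39.0. The annotation release and a strand option are not given in the sources used here. Columns were matched to libraries by number, and 0 were left out. The 8 genes, the lists and the tests were chosen with earlier results of these data known.

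Counts were tested with edgeR 4.0.16 (R 4.3.3, quasi-likelihood, TMM, filterByExpr with a minimum count of 10, Benjamini-Hochberg). Variance was moderated across genes, which gave 10.04 degrees of freedom for each of the 8 genes. The SE was derived from the log2 difference and its F statistic, so it is not the spread of a gene's own libraries alone. Over all genes, the depth of 13798249 to 39818103 counts per library limited precision less than the replicate spread. CPM used TMM factors, and TPM used the exon length of GENCODE M21, to which 54079 identifiers were matched. In simulated data 93.5% of 200 genes changed by 1.5 on the log2 scale were recovered, with 3 false calls among 14342 genes. These data had a common dispersion and no GC trend, and their changes were larger than that of any of the 8 genes. They give no rate of recovery for differences near 1.5-fold. Named genes were all 8 members, from each pathway list every changed gene where there were 5 or fewer and otherwise the 3 highest and 3 lowest changed genes, with the gene of highest mean TPM. From each marker list they were the most abundant gene and defining markers at 0, and for 3 members the 3 genes with the nearest pattern. Marker genes given as label checks, Ly6g, Csf1r, Cd14 and Mrc1 were added after their values were seen. Alternatives were DESeq2 1.42.0, limma-voom (limma 3.58.1), other scalings, filters, thresholds and gene lengths, removal of a GC spline with 5 degrees of freedom, a replicate block and leaving out each library.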

Additional observations from a re-analysis of the deposited data

How the results depend on the processing

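Of 464 values of 34 results under 17 settings, 372 were counted as unchanged. By that rule a tested value kept its direction and its side of the threshold, and a count stayed within 1.5 times. An untested value moved by less than the replicate SD. Sizes could still move: Fcgr4 was counted as unchanged in all 16 alternatives, at -0.45 to -0.03. Some values could not differ, as glmTreat and altered fold criteria reuse the fold change and gene length cancels from differences of single-gene log2 ratios. The untested values counted as unchanged include the Fcgr3 to Fcgr2b log2 ratio, whose sign turned without control replicate 2 (-0.0024). Removal of the GC trend left 1899 called genes in all (697 lower), 8 in the downstream list, Fcgr2b at 0.68 and Fcgrt at 0.46. It moved the log2 ratios to Fcgr2b to -0.34 (Fcgr1), -0.24 (Fcgr3), -0.77 (Fcgr4) and -0.40 (sum), and the share differences to -0.19 (Fcgr1) and 4.12 (Fcgr2b) percentage points. With the longest transcript as length the share difference of Fcgr1 was 2.31 points. With no filter on low counts 2 of the 8 genes were called, both higher, beside 8.19% higher and 7.57% lower of 28343 tested genes. Tyrobp at 0.59 was the added one. The glmTreat test against 1.5-fold called 1093 genes (413 higher, 680 lower), 0 of the 8, 1 other Fc receptor, 2 downstream genes, 2 inhibitory genes and 6 coupled receptors, with Fcgrt at 0.78 and not called. A criterion of a log2 difference over 1.5 left 728 genes (61 higher, 667 lower), 3 of them coupled receptors and 0 in the other lists, Fcgrt at 0.78 being under it. With no fold criterion 6204 genes were called (3205 higher), 30 downstream and 18 inhibitory, and 6 of the 8, all higher, Fcgr1 at 0.45, Fcgr2b at 0.31, Fcgr3 at 0.35, Tyrobp at 0.51 and Syk at 0.44 joining Fcgrt. The adjusted p of Fcgrt ranged from 1.25e-13 to 0.0814 over its alternatives. In these cases the threshold, the filter or the correction is what was altered, and no further cause was tested.

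With each library left out in turn, where the lone library is assumed to vary like the others, 1 to 3 of the 8 genes were called, all higher, and 11 to 16 coupled receptors. The log2 differences ranged from 0.34 to 0.59 for Fcgr1, 0.43 to 0.63 for Tyrobp and -0.03 to 0.31 for Fcer1g, whose sign turned without PRO replicate 1 (-0.0265). Fewer coupled receptors were called without PRO replicate 1 than with all libraries. Without PRO replicate 2, Fcgr1 (0.59) and Tyrobp (0.63) were past 1.5-fold beside Fcgrt. The cause was not tested.

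Replicate numbers were shared between the groups in the labels, but nothing says that they pair the samples. Deviations of same-numbered libraries correlated at 0.17 across 14688 genes, with 2 pairs only. With the replicate block 4362 genes were called in place of 4084, and no call among the 8 genes changed. GC removal with the replicate block gave 2248 calls (957 lower), 8 in the downstream list, Fcgr2b at 0.67, Fcgrt at 0.46 and Fcer1g at -0.0006, against 0.13 without either.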
